A study of Mus musculus with 12 samples.

Results

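Transcripts of 10 enzymes that turn membrane arachidonic acid into prostaglandins and leukotrienes were followed, picked by name from the gene table. They are Pla2g4a, Ptgs1, Ptgs2, Ptges, Ptges2, Ptges3, Hpgds, Alox5, Alox5ap and Ltc4s, 10 of the 55401 genes listed. The set runs from phospholipase to synthases of prostaglandins E2 and D2 and leukotriene C4. Other terminal synthases are treated below as further genes. The cells were mouse bone-marrow-derived macrophages (BMDMs) of the C57BL/6J strain, differentiated over 7 days in medium with M-CSF, a macrophage growth factor, at 20 nM. All donors were Irx3-/-, so every group, the controls included, lacks the endogenous Iroquois homeobox factor. An adeno-associated virus (AAV) brought in IRX3_S389A, IRX3_S361A, IRX3_WT or GFP, with 3 libraries per construct (12 in all), and every culture was exposed to lipopolysaccharide (LPS) at 100 ng/ml for 4 h. S389A and S361A name a serine replaced by alanine. No unstimulated cells are among these samples, so each difference below is one between constructs in LPS-treated macrophages. Neither the promoter on the virus, nor the species of the IRX3 sequence, nor the age of the mice is stated in the sources at hand. The labels also leave out whether the 3 libraries of a construct came from separate animals or cultures, so the p-values cover no more than the scatter among libraries, which may be technical.

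Cytosolic phospholipase A2 frees arachidonic acid from membranes, and the cyclooxygenases COX-1 and COX-2 convert it into prostaglandin H2, which terminal synthases turn into single prostanoids such as prostaglandin E2 or D2. In a separate branch, 5-lipoxygenase and its helper protein FLAP make leukotriene A4, the precursor of leukotrienes B4 and C4. In macrophages stimulated through Toll-like receptor 4, COX-2 and microsomal prostaglandin E synthase 1 are the inducible enzymes, whereas COX-1 is usually described as constitutive.

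The inducible and the constitutive cyclooxygenase, and the terminal synthases for prostaglandins E2 and D2, were the pairs whose transcripts differed in opposite directions between constructs, and their promoter windows are shown for that reason. RefSeq windows (GRCm38.p6) of 300 bases, from 250 before to 50 after the transcription start, matched 9 of the 10 genes, all but Alox5ap. The Ptgs2 window is chr1:150099781-150100080 on the plus strand, the Ptgs1 window chr2:36230176-36230475 on the plus strand, the Ptges window chr2:30903248-30903547 on the minus strand and the Hpgds window chr6:65144681-65144980 on the minus strand. Each is written 5′ to 3′, and capitals mark a match to a motif named next.
Ptgs2: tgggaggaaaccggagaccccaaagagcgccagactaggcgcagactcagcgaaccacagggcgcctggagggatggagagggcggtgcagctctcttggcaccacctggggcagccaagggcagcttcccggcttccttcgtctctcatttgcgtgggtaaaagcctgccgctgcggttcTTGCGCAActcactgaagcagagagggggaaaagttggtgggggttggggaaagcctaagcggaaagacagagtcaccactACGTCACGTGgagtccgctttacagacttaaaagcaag
Ptgs1: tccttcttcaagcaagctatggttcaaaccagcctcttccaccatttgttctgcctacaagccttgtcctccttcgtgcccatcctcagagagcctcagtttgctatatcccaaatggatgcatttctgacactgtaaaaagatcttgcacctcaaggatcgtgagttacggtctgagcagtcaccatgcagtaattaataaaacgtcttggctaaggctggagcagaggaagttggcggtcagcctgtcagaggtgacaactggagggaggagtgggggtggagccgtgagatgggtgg
Ptges: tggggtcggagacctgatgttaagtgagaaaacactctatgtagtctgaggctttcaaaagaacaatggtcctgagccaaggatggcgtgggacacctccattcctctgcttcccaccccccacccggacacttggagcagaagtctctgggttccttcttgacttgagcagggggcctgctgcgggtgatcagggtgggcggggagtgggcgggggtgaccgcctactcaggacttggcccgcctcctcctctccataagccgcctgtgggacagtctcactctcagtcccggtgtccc
Hpgds: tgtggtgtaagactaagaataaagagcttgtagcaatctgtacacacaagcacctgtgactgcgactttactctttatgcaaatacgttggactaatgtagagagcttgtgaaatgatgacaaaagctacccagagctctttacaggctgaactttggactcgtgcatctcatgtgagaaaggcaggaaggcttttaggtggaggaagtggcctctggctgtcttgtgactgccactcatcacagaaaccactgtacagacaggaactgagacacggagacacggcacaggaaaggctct

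The motifs searched on both strands were the TATA box TATAAA, the cAMP response element core TGACGT, the AP-1 motif TGANTCA, the E-box CACGTG, the C/EBP motif TTGCNCAA, the Iroquois motif ACANNTGT and the NF-kappaB consensus. Positions are counted from 1 at the annotated RefSeq start. The Ptgs2 window held a C/EBP match from position -69 to -62, which 2.94% of 32851 windows of this length also hold. It held a cAMP response element core on the opposite strand at 13 to 18 (7.51% of all windows), overlapping an E-box at 17 to 22 (7.15%). None of the 7 motifs was found in the searched windows of Ptgs1, Ptges, Hpgds, Pla2g4a, Alox5 and Ltc4s. Elsewhere, the Ptges2 window had an E-box at -77 to -72 and the Ptges3 window an NF-kappaB consensus at -87 to -78, which 8.46% of windows hold. None of the 9 windows searched had a TATA box (13.6% of all), an AP-1 motif (7.81%) or an Iroquois motif (7.38%). These are matches of letters only. The RefSeq start of Ptges lies 26566 bases inside the gene as GENCODE annotates it, so other starts of this gene were not searched. For Pla2g4a, RefSeq gives 2 windows, and only the window at the GENCODE start was searched.

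Recovered reads, summed over the listed genes, ran from 17149058 to 20108002 per library. Values are deposited read counts divided by 1 size factor per library, called normalized counts here, and 1 read equals 0.890 to 1.14 of them. A gene was tested if it reached 10 normalized counts in 3 libraries, which 13369 genes did, among them 10 of the 10 enzymes. Irx3 itself had 187 ± 20.2 normalized counts (SD, n = 3) with IRX3_S389A, 349 ± 21.5 with IRX3_S361A and 177 ± 16.3 with IRX3_WT, and no read in a GFP library. The surplus of Irx3 transcript in IRX3_S361A libraries means that, for this construct, the substitution and the level of the transgene cannot be told apart. Macrophage markers were present in every library, the 9 of them summing to 394027 to 407641 normalized counts with IRX3_S389A, 417418 to 430712 with IRX3_S361A, 390094 to 394402 with IRX3_WT and 361388 to 371831 with GFP. In bulk RNA, fewer cells of a type and less RNA per cell cannot be told apart.

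COX-2 and its partners at the release and prostaglandin E2 steps were highest with IRX3_WT, while COX-1 and the prostaglandin D2 synthase were lowest there. The other members, Ptges2, Ptges3 and the leukotriene enzymes Alox5, Alox5ap and Ltc4s, passed no test between constructs. The test of any difference among the 4 constructs called 5 of the 10 enzymes (limma, Benjamini-Hochberg adjusted p under 0.05), against a background of 44.2% of all tested genes. With IRX3_WT against GFP, 5 of 10 were called (39.6% of all genes), of which Pla2g4a, Ptgs2 and Ptges were higher and Ptgs1 and Hpgds lower (21.0% and 18.6% of all genes). The same 5 genes were called with IRX3_S361A against IRX3_WT (background 15.5%) and with IRX3_S389A against IRX3_WT (15.3%). In both of these, Pla2g4a, Ptgs2 and Ptges were lower (9.07% and 7.08% of all genes) and Ptgs1 and Hpgds higher (6.43% and 8.21%), so each called enzyme differed from IRX3_WT in the direction of GFP. The comparisons share the IRX3_WT libraries. The median log2 difference over the 10 enzymes was -0.22 for IRX3_S361A against IRX3_WT and -0.16 for IRX3_S389A against IRX3_WT, beside 0.01 and 0.00 over all tested genes. For IRX3_WT against GFP the medians were 0.07 and -0.01.

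**Figure D1:**
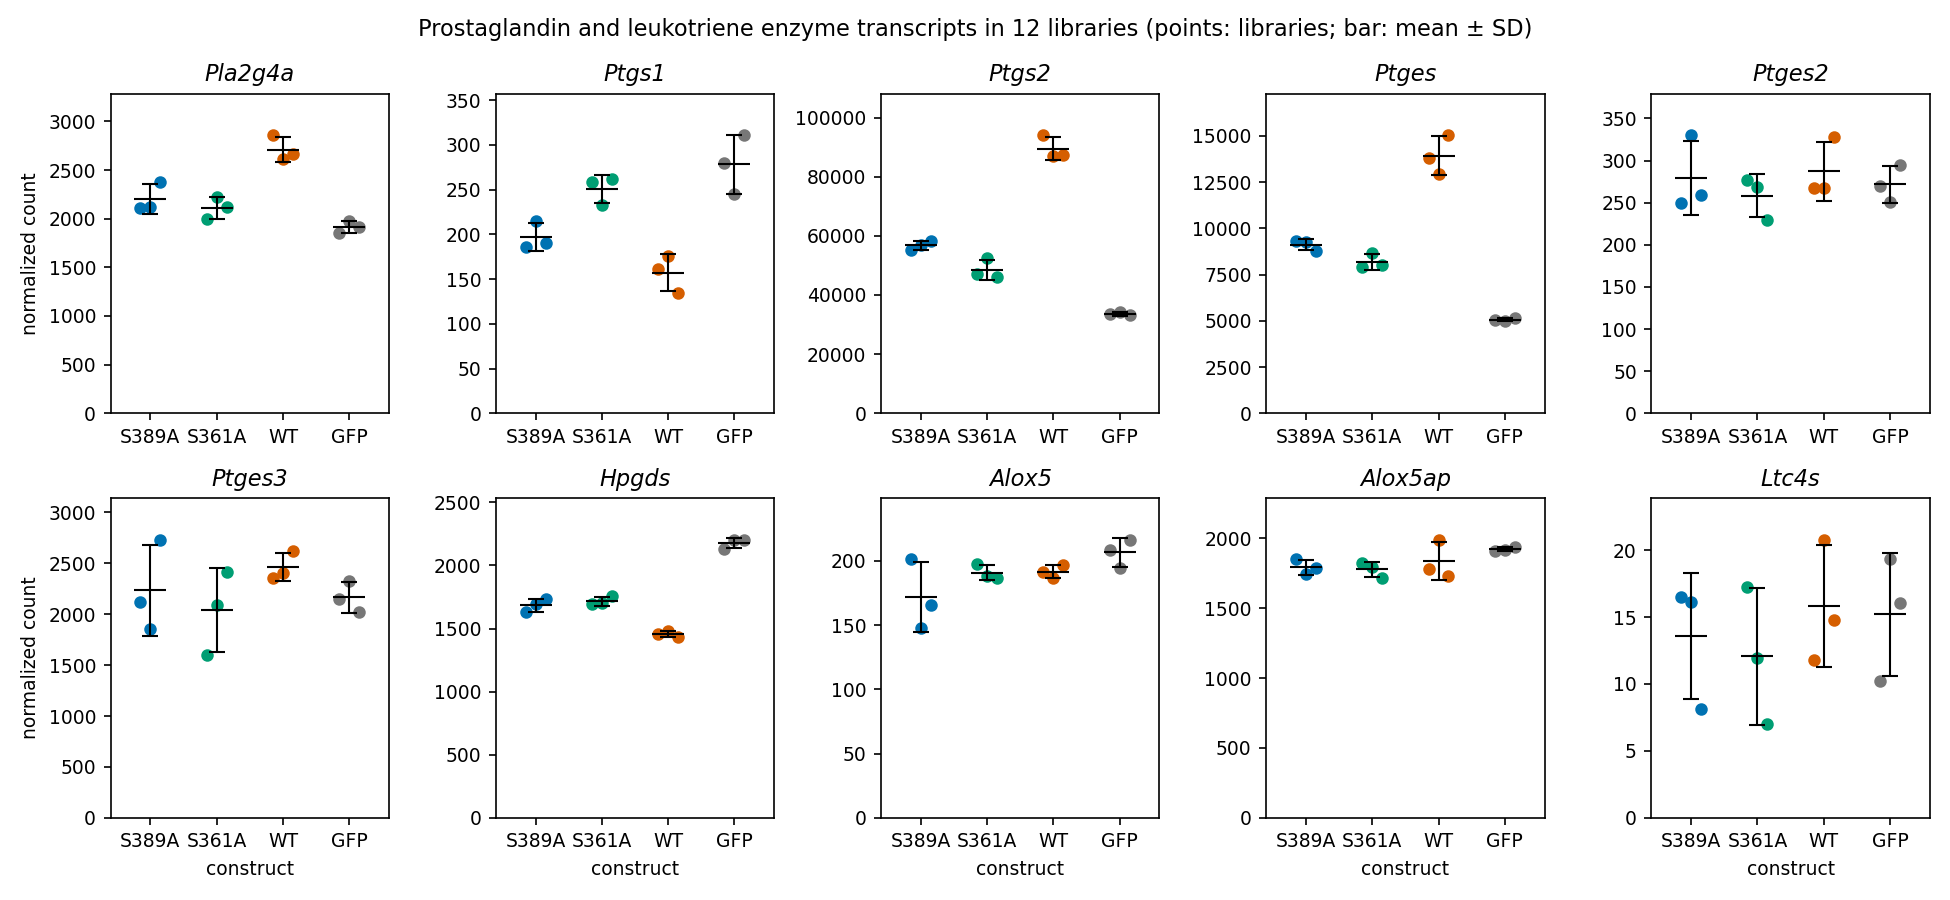
Normalized counts (linear axis from 0, a scale of its own per gene) of the 10 enzymes in each of the 12 libraries, by construct, with the mean and SD of 3 libraries. For Ptgs2 the IRX3_WT libraries (87059 to 94027) lie above all others, and for Hpgds the GFP libraries (2132 to 2204) do.

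The release step is represented by Pla2g4a (ENSMUSG00000056220.14, chromosome 1, 149829618 to 149961290, minus strand), which encodes cytosolic phospholipase A2 alpha. It had 2106, 2123 and 2382 normalized counts with IRX3_S389A, 1999, 2223 and 2119 with IRX3_S361A, 2859, 2614 and 2663 with IRX3_WT, and 1853, 1977 and 1919.9 with GFP. Every IRX3_WT library was above every other, and both mutant groups lay between IRX3_WT and GFP. The gene was higher with IRX3_WT than with GFP by 0.50 on the log2(value + 1) scale (limma adjusted p = 1.80e-10, SE 0.05). It was lower than IRX3_WT with IRX3_S361A (log2 difference -0.36, SE 0.05, limma adjusted p = 1.44e-06) and with IRX3_S389A (-0.30, SE 0.05, limma adjusted p = 3.61e-05). IRX3_S389A also exceeded GFP, by 0.20 (limma adjusted p = 0.00182), and IRX3_S361A by 0.14 (limma adjusted p = 0.0369). Scaling every library to an equal total ended both of these smaller calls (0.03 each, adjusted p = 0.641 for IRX3_S389A and 0.717 for IRX3_S361A). For IRX3_S361A against GFP the call was also lost without GFP library 1 (adjusted p = 0.157), GFP library 3 (0.0846), IRX3_S361A library 2 (0.211) or IRX3_S361A library 3 (0.0900), with no filter on low values (0.0588), with edgeR on 12 libraries (0.0559) and without the trend and robust settings of limma (0.158), and over all alternatives its adjusted p ran from 0.0119 to 0.724.

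At the cyclooxygenase step the 2 isoenzymes differed in opposite directions. Ptgs2 (ENSMUSG00000032487.8, chromosome 1, 150100031 to 150108227, plus strand) encodes COX-2, and per kb of exon it ranked 47 of 13355 genes by its mean over the 12 libraries. It had 55129, 56915 and 58192 normalized counts with IRX3_S389A, 47208, 52418 and 45969 with IRX3_S361A, 94027, 87059 and 87339 with IRX3_WT, and 33548, 34369 and 33112 with GFP. No 2 constructs overlapped, and the order from high to low was IRX3_WT, IRX3_S389A, IRX3_S361A and GFP, with each neighbouring pair past the test. The mean with IRX3_WT was 2.66 times that with GFP, a log2 difference of 1.41 (SE 0.04, limma adjusted p = 3.33e-17). With IRX3_S361A it was 0.542 times and with IRX3_S389A 0.634 times the IRX3_WT mean (log2 differences of -0.88 and -0.66, limma adjusted p = 1.38e-12 and 3.39e-10). Relative to GFP, Ptgs2 was higher with IRX3_S389A by 0.75 and with IRX3_S361A by 0.53 on the log2 scale (limma adjusted p = 2.00e-12 and 1.52e-09).

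Ptgs1 (ENSMUSG00000047250.13, chromosome 2, 36230426 to 36252272, plus strand) encodes COX-1. Its normalized counts were 186, 214 and 190.0 with IRX3_S389A, 258, 233 and 261 with IRX3_S361A, 161, 175 and 134 with IRX3_WT, and 279, 245 and 311 with GFP. The IRX3_WT libraries were lowest without overlap, whereas those of IRX3_S361A and GFP overlapped. With IRX3_WT, Ptgs1 fell by 0.82 on the log2 scale relative to GFP (limma adjusted p = 1.63e-07, SE 0.11). With IRX3_S361A it was higher than with IRX3_WT by 0.68 (limma adjusted p = 2.85e-05), and against GFP it did not pass (log2 difference -0.15, 95% interval -0.38 to 0.08, limma adjusted p = 0.393). IRX3_S389A lay below GFP (log2 difference -0.49, limma adjusted p = 6.17e-04) and above IRX3_WT by 0.33 (limma adjusted p = 0.0438). That last call is at the threshold. It was lost without IRX3_S389A library 1 (adjusted p = 0.0576), 2 (0.195) or 3 (0.0586), IRX3_S361A library 3 (0.0512), IRX3_WT library 1 (0.0650) or 3 (0.265), or GFP library 1 (0.0530). It was also lost with no filter on low values (0.0802), with edgeR on 12 libraries (0.0649), without the trend and robust settings of limma (0.114), on those 2 groups alone (0.0802) and with a GC correction (0.0567). Over all alternatives its adjusted p ran from 0.0198 to 0.282. Exons of the opposite-strand gene Gm43621 cover 3.81% of the exon bases of Ptgs1, but no library gave Gm43621 more than 0.921 normalized counts. Platelets are a known source of COX-1 products. Of 7 erythroid and platelet markers, only 2 reached the level for testing, and 1 was at 0 in all libraries. The 7 summed to 3383 to 3591 normalized counts with IRX3_S389A, 3527 to 3730 with IRX3_S361A, 4136 to 4355 with IRX3_WT and 2576 to 3087 with GFP. Nearly all of this sum was Pf4, the gene of platelet factor 4. The part of these cells in the result was not tested.

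Per kb of exon, the ratio of Ptgs2 to Ptgs1 was 251, 225 and 260 in the IRX3_S389A libraries, 155, 191 and 149 with IRX3_S361A, 494, 421 and 552 with IRX3_WT, and 102, 119 and 90.4 with GFP. No 2 constructs overlapped in this ratio. COX-2 transcript therefore outweighed COX-1 transcript in every library, most with IRX3_WT. Ptgs2 alone made up 69.8 ± 0.723% (SD, n = 3) of the summed per-kb level of the 10 enzymes with IRX3_S389A, 67.8 ± 1.32% with IRX3_S361A, 74.3 ± 1.22% with IRX3_WT and 62.3 ± 0.311% with GFP.

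Among the prostaglandin E synthases, only Ptges passed a test. Ptges (ENSMUSG00000050737.13, chromosome 2, 30889471 to 30929863, minus strand) encodes microsomal prostaglandin E synthase 1, which is functionally coupled to COX-2. It had 9315, 9234 and 8783 normalized counts with IRX3_S389A, 7884, 8660.0 and 7990.3 with IRX3_S361A, 13789, 12956 and 15036 with IRX3_WT, and 5046, 4989 and 5171 with GFP. As for Ptgs2, the constructs did not overlap and ran from IRX3_WT through IRX3_S389A and IRX3_S361A to GFP. The IRX3_WT mean was 2.75 times the GFP mean (log2 difference 1.46, SE 0.04, limma adjusted p = 4.09e-23). Relative to IRX3_WT, Ptges was lower by a log2 difference of -0.77 with IRX3_S361A and -0.61 with IRX3_S389A (limma adjusted p = 8.44e-15 and 4.42e-12). It stayed above GFP by 0.85 with IRX3_S389A and by 0.69 with IRX3_S361A (limma adjusted p = 7.76e-17 and 3.34e-14).

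Ptges2 (ENSMUSG00000026820.5, chromosome 2, 32395896 to 32405772, plus strand), a membrane-associated prostaglandin E synthase, averaged 279.8 ± 43.9 normalized counts (SD, n = 3) with IRX3_S389A, 258 ± 25.6 with IRX3_S361A, 287 ± 34.9 with IRX3_WT and 272 ± 22.2 with GFP. All groups overlapped, and the 95% interval of the log2 difference between IRX3_WT and GFP ran from -0.14 to 0.30. Ptges3 (ENSMUSG00000071072.12, chromosome 10, 128058954 to 128077272, plus strand) encodes p23, a co-chaperone of heat shock protein 90 that is also named cytosolic prostaglandin E synthase. Its normalized counts were 2119, 1859 and 2732 with IRX3_S389A, 1602, 2095 and 2418 with IRX3_S361A, 2358, 2410.1 and 2617 with IRX3_WT, and 2153, 2328 and 2026 with GFP. The IRX3_WT libraries lay just above the GFP libraries, with a log2 difference of 0.18 (95% interval -0.22 to 0.58, limma adjusted p = 0.462). Fitted on those 2 groups alone, this difference passed (adjusted p = 0.00380), and over all alternatives its adjusted p ran from 0.00380 to 0.978. The wide spread of Ptges3 within the mutant groups was mirrored by its processed pseudogene Ptges3-ps (chromosome 6, 85843980 to 85844459, plus strand). Ptges3-ps had 721, 908 and 642 normalized counts in IRX3_S389A libraries 1 to 3 and 952, 711 and 545 in IRX3_S361A libraries 1 to 3, lowest where Ptges3 was highest in both groups. Reads that match both copies may have been split between them, so the values of Ptges3 are uncertain.

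Hpgds (ENSMUSG00000029919.5, chromosome 6, 65117293 to 65144908, minus strand) encodes hematopoietic prostaglandin D synthase, which draws on the same prostaglandin H2. It had 1631, 1691 and 1734 normalized counts with IRX3_S389A, 1691, 1705 and 1758 with IRX3_S361A, 1460.0, 1483 and 1431 with IRX3_WT, and 2132, 2204 and 2199 with GFP. Its order was the reverse of that of Ptges, with GFP highest, IRX3_WT lowest and the overlapping mutants between. With IRX3_WT it fell by 0.58 on the log2 scale relative to GFP (limma adjusted p = 2.88e-13, SE 0.05). It was higher than IRX3_WT with IRX3_S361A by 0.24 and with IRX3_S389A by 0.21 (limma adjusted p = 2.34e-04 and 0.00118). Both mutants stayed below GFP, with log2 differences of -0.37 for IRX3_S389A and -0.34 for IRX3_S361A (limma adjusted p = 2.03e-08 and 1.88e-07). Outside macrophages, mast cells also make prostaglandin D2, and of 10 mast cell and basophil markers 9 stayed at or below 8.10 normalized counts, 4 of them at 0 in all libraries. The remaining marker, the histidine decarboxylase gene Hdc, carried nearly all of the list's sum, which was 555 to 652 with IRX3_S389A, 519 to 582 with IRX3_S361A, 578 to 705 with IRX3_WT and 297 to 361.015 with GFP. The part of these cells in the result was not tested.

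The per-kb ratio of Ptges to Hpgds was 8.85 ± 0.531 (SD, n = 3) with IRX3_S389A, 7.78 ± 0.460 with IRX3_S361A, 15.6 ± 1.45 with IRX3_WT and 3.80 ± 0.0908 with GFP. Both mutants lay between IRX3_WT and GFP without touching either, and overlapped each other by 1 library, since the highest IRX3_S361A value was 8.30 and the lowest IRX3_S389A value 8.28.

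**Figure D2:**
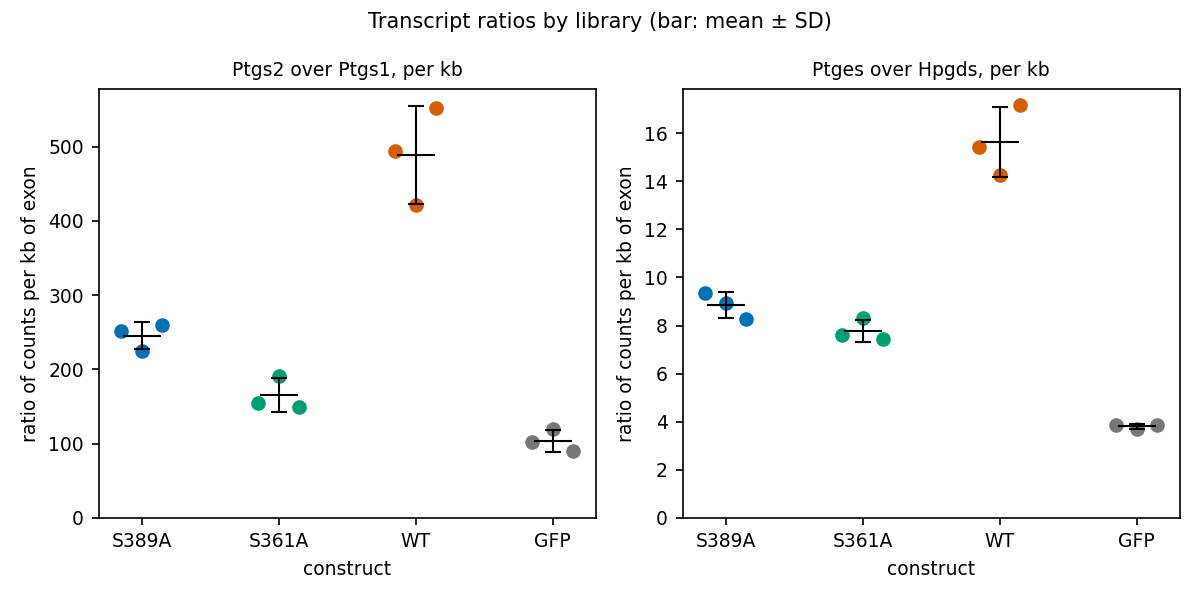
Ratio of Ptgs2 to Ptgs1 (left) and of Ptges to Hpgds (right), each as normalized counts per kb of exon, with 1 point per library and the mean and SD of 3 libraries per construct. IRX3_WT libraries lie highest in both panels (421 to 552 and 14.3 to 17.2) and GFP libraries lowest (90.4 to 119 and 3.70 to 3.87).

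Alox5, Alox5ap and Ltc4s passed no test between any 2 constructs. Alox5 (ENSMUSG00000025701.12, chromosome 6, 116410077 to 116461178, minus strand) encodes 5-lipoxygenase and had 201, 148 and 166 normalized counts with IRX3_S389A, 197, 188 and 187 with IRX3_S361A, 191, 187 and 197 with IRX3_WT, and 209, 194 and 216 with GFP. The IRX3_WT libraries overlapped those of GFP, and the log2 difference was -0.11 (95% interval -0.34 to 0.13, limma adjusted p = 0.498). For IRX3_S389A against GFP it was -0.28 (limma adjusted p = 0.0587), and this difference passed without IRX3_S389A library 1 (-0.40, adjusted p = 0.0113), with edgeR on all 12 libraries (adjusted p = 0.0490) and with equal library totals (-0.44, adjusted p = 0.00164), but not with edgeR on the 9 libraries with recovered reads (0.301). Over its alternatives the adjusted p ran from 0.00164 to 0.313.

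Alox5ap (ENSMUSG00000060063.9, chromosome 5, 149264767 to 149288153, plus strand) encodes FLAP, which presents arachidonic acid to 5-lipoxygenase. Its normalized counts were 1852, 1743 and 1785 with IRX3_S389A, 1824, 1794 and 1716 with IRX3_S361A, 1783, 1989.6 and 1733 with IRX3_WT, and 1912, 1914 and 1937 with GFP. Both mutants were below GFP in every library, with log2 differences of -0.10 for IRX3_S389A and -0.11 for IRX3_S361A, without passing the test (limma adjusted p = 0.122 and 0.0963). IRX3_WT against GFP gave -0.07 (95% interval -0.17 to 0.03, limma adjusted p = 0.291), which passed without IRX3_WT library 2 (-0.13, adjusted p = 0.0454). With equal library totals, Alox5ap was called lower than with GFP for IRX3_S389A (-0.27), IRX3_S361A (-0.23) and IRX3_WT (-0.25), while the median of all genes shifted to -0.17, -0.11 and -0.18. The opposite-strand gene Gm19719 covers 13.3% of its exon bases and had at most 11.4 normalized counts.

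Ltc4s (ENSMUSG00000020377.15, chromosome 11, 50236461 to 50238616, minus strand) encodes leukotriene C4 synthase and was close to the detection limit. It had 16.5, 16.1 and 8.13 normalized counts with IRX3_S389A, 17.2, 11.9 and 7.04 with IRX3_S361A, 11.8, 20.8 and 14.8 with IRX3_WT, and 10.2, 19.3 and 16.03 with GFP. All groups overlapped, and the interval of the log2 difference between IRX3_WT and GFP, -0.76 to 0.88, is wide enough that a change of the size seen for Hpgds was not detectable at this depth. Of its exon bases, 26.4% overlap the opposite-strand gene Gm26542, which had at most 3.10 normalized counts. Per kb of exon, the mean over the 12 libraries ranked Alox5ap 728, Alox5 8150 and Ltc4s 10781 of 13355 genes.

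**Figure D3:**
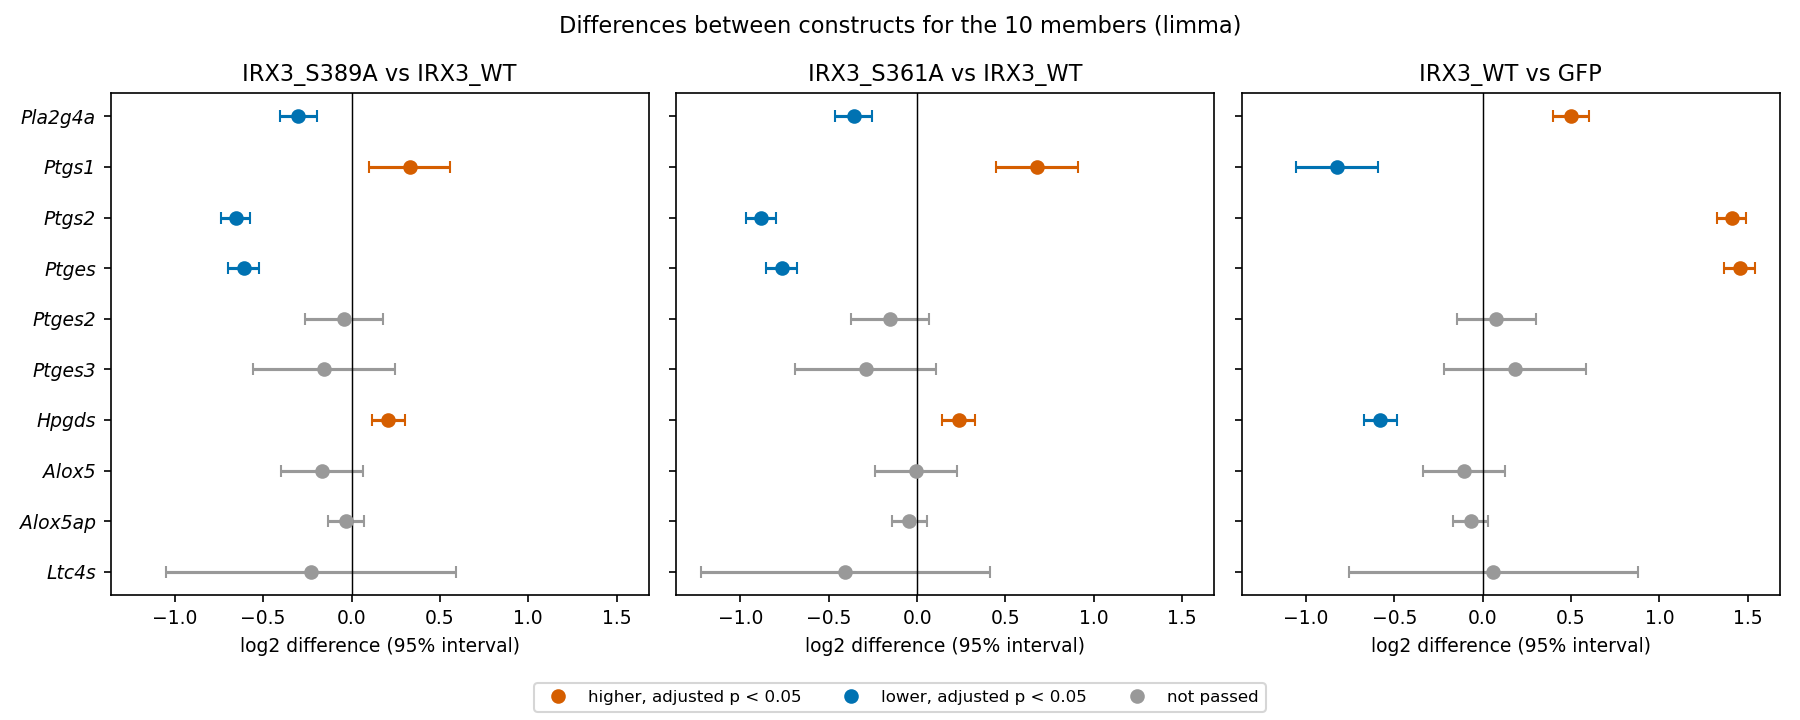
Log2 differences with 95% intervals (limma, log2(value + 1)) of the 10 enzymes for IRX3_S389A against IRX3_WT, IRX3_S361A against IRX3_WT and IRX3_WT against GFP, coloured by the call at an adjusted p of 0.05. Ptgs2, Ptges and Pla2g4a lie right of 0 for IRX3_WT against GFP and left of 0 for both mutants against IRX3_WT, and Ptgs1 and Hpgds the other way round.

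The 2 substitutions were also compared with each other. IRX3_S389A exceeded IRX3_S361A in Ptgs2 by 0.23 and in Ptges by 0.16 on the log2 scale (limma adjusted p = 5.25e-04 and 0.0147), and Ptgs1 was lower in IRX3_S389A (log2 difference -0.35, limma adjusted p = 0.0430). These are 3 of 10 enzymes, 2 higher and 1 lower, where 10.2% of all tested genes were called, 7.00% higher and 3.16% lower. For Pla2g4a the 95% interval of the difference was -0.04 to 0.16 and for Hpgds -0.12 to 0.07, and neither passed the test. The Ptges call was lost without IRX3_S361A library 1 (adjusted p = 0.0843) or 3 (0.0870) or IRX3_S389A library 1 (0.0763) or 2 (0.0701), with equal library totals (0.147) and without trend and robust settings (0.184). That of Ptgs1 was lost without IRX3_S361A library 1 (0.117) or 3 (0.154), IRX3_S389A library 1 (0.145) or 3 (0.127), or GFP library 1 (0.0527), with no filter on low values (0.0783) and without trend and robust settings (0.126). The Ptgs2 call held without any single library (highest adjusted p = 0.0109) but was lost without trend and robust settings (0.0513). Against GFP, 5 of 10 enzymes were called with IRX3_S389A (3 higher, 2 lower, beside 35.0% of all genes, 18.8% higher and 16.2% lower) and 4 of 10 with IRX3_S361A (3 higher, 1 lower, beside 25.9%, 14.9% and 10.9%). The enzyme absent from the IRX3_S361A count is Ptgs1.

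The transcripts whose pattern was most like that of Ptgs2 across the 12 libraries, by Pearson correlation of log2 values among 8742 genes, were Cd38 (r = 0.996), Il6 (0.993), Rasgrp1 (0.993), Mtdh (0.992) and Lrrc8c (0.989). The libraries form separate groups by construct, so these coefficients describe a shared order of the group means. Cd38, an NAD-consuming ectoenzyme, averaged 1428 normalized counts with IRX3_S389A, 1100.0 with IRX3_S361A, 2848 with IRX3_WT and 622 with GFP. Those closest to Alox5 were Endov (0.901), Eif2ak4 (0.888), Trim39 (0.857), Rcc1l (0.853) and Brat1 (0.848), none of which came as near as the Ptgs2 partners. Alox5 itself passed no test between constructs. Its partners are the highest coefficients among 8742 genes over only 12 libraries, and whether they exceed chance was not tested.

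Next to Ptgs2 lie 2 noncoding genes, which were examined after their values had been seen. Ptgs2os2 (ENSMUSG00000097754.1, chromosome 1, 150159043 to 150164948, minus strand), 50815 bases beyond the 3′ end of Ptgs2, is the locus of the LPS-inducible RNA known as lincRNA-Cox2. It had 212, 193 and 202 normalized counts with IRX3_S389A, 174, 151 and 165 with IRX3_S361A, 287, 280 and 263 with IRX3_WT, and 139, 135 and 148 with GFP. No 2 constructs overlapped, and their order was that of Ptgs2. It was higher with IRX3_WT than with GFP by 0.97 on the log2 scale (limma adjusted p = 1.60e-09, SE 0.11) and lower than with IRX3_WT in IRX3_S361A (-0.76) and IRX3_S389A (-0.45) libraries (limma adjusted p = 1.74e-06 and 0.00304). The differences of IRX3_S361A from GFP (limma adjusted p = 0.160) and of IRX3_S389A from IRX3_S361A (0.0638) did not pass, except without trend and robust settings (0.0444 and 0.0277). Ptgs2os (ENSMUSG00000097028.2), which starts 67 bases from Ptgs2 on the minus strand, was weaker, at 24.8, 12.1 and 12.2 normalized counts with IRX3_S389A, 20.2, 12.9 and 9.05 with IRX3_S361A, 39.4, 24.9 and 21.6 with IRX3_WT, and 5.57, 12.9 and 7.12 with GFP. Its IRX3_WT libraries lay above those of GFP (log2 difference 1.67, SE 0.40, limma adjusted p = 8.11e-04), and no other pair of constructs passed. Without GFP library 2, IRX3_S389A also exceeded GFP (adjusted p = 0.0391, and 0.0917 with all libraries).

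Beyond the 10 enzymes, 61 further genes of eicosanoid metabolism and signalling were looked up, of which 59 were matched and 31 were tested. The 28 others reached at most 11.1 normalized counts, and 6 of them, including the lipocalin-type prostaglandin D synthase gene Ptgds, were at 0 in all libraries. Of the 31, 10 were higher and 12 lower with IRX3_WT than with GFP, beside 21.0% and 18.6% of all tested genes. With IRX3_S361A against IRX3_WT 5 were higher and 6 lower (6.43% and 9.07% of all), and with IRX3_S389A against IRX3_WT 8 were higher and 2 lower (8.21% and 7.08%). Scaling to equal library totals gave 7 higher and 14 lower for IRX3_WT against GFP, 12 and 6 for IRX3_S361A against IRX3_WT, and 9 and 2 for IRX3_S389A against IRX3_WT. The balance of directions therefore depended on the scaling for IRX3_WT against GFP and IRX3_S361A against IRX3_WT. For IRX3_S389A against IRX3_WT it hardly changed.

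Arachidonate can also come from other lipases, and of 8 tested phospholipases and lipases 2 were higher and 3 lower with IRX3_WT than with GFP (21.0% and 18.6% of all genes). The platelet-activating factor hydrolase gene Pla2g7 averaged 6732 normalized counts with IRX3_S389A, 5814 with IRX3_S361A, 6682 with IRX3_WT and 4881 with GFP. It was higher with IRX3_WT than with GFP by 0.45 and lower with IRX3_S361A than with IRX3_WT, with a log2 difference of -0.20 (limma adjusted p = 5.02e-13 and 1.04e-04), while IRX3_S389A was within 0.01 of IRX3_WT. Plaat3, a phospholipase first described in adipose tissue, averaged 289 normalized counts with IRX3_S389A, 169.9 with IRX3_S361A, 263 with IRX3_WT and 176 with GFP. It was higher with IRX3_S389A than with IRX3_S361A by 0.77 (limma adjusted p = 4.59e-06). The lysosomal phospholipase gene Pla2g15 and the diacylglycerol lipase gene Daglb fell by 0.54 and 0.40 with IRX3_WT relative to GFP, and neither differed from IRX3_WT past the threshold with a mutant in the full fit. Without IRX3_S389A library 3 the Pla2g15 difference of that mutant from IRX3_WT passed (adjusted p = 0.0264), as did that of IRX3_S361A with equal library totals (0.0318) and, for IRX3_S389A, that of Daglb without IRX3_WT library 2 (0.00878). Rac1, on the opposite strand, covers 24.1% of the exon bases of Daglb, whose values are therefore uncertain.

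Of 4 other prostanoid synthases tested, 3 were lower with IRX3_WT than with GFP and none was higher, beside 18.6% lower and 21.0% higher among all genes. These were Cbr1, a carbonyl reductase that converts prostaglandin E2 to F2 alpha (log2 difference -0.38, limma adjusted p = 0.0141), Prxl2b, a prostamide and prostaglandin F synthase (-0.31, 0.0138), and Akr1b3, aldose reductase, which also makes prostaglandin F2 alpha (-0.16, 0.00781). Cbr1 and Akr1b3 were higher with IRX3_S389A than with IRX3_WT, by 0.40 and 0.16 (limma adjusted p = 0.0216 and 0.0226). Most of these calls depended on single libraries. The IRX3_WT against GFP calls were lost for Cbr1 without IRX3_WT library 3 (adjusted p = 0.189) or GFP library 3 (0.0973), for Prxl2b without IRX3_WT library 1 (0.0709) or 2 (0.0530) or GFP library 2 (0.126), and for Akr1b3 without IRX3_WT library 1 (0.0530). The IRX3_S389A calls were lost for Cbr1 without IRX3_S389A library 1 (0.108) or IRX3_WT library 3 (0.240) and for Akr1b3 without IRX3_S389A library 1 (0.143) or 2 (0.0741) or IRX3_WT library 1 (0.119). The Prxl2b call was also lost with a GC correction (0.0618), and that of Akr1b3 in IRX3_S389A with no filter on low values (0.0567), without trend and robust settings (0.0786) and with edgeR on 9 libraries, of which 2 are IRX3_S389A (0.0986). Without trend and robust settings, Cbr1 lost its call for IRX3_WT against GFP (0.0576) and for IRX3_S389A against IRX3_WT (0.103). Thromboxane synthase, Tbxas1, had a log2 difference of -0.08 for IRX3_WT against GFP (limma adjusted p = 0.390), and of the alternatives run only equal library totals brought it past the threshold (-0.25, 0.00162).

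From the list of other leukotriene and lipoxygenase enzymes, 4 genes were tested. Of these, 2 were higher and 2 lower with IRX3_WT than with GFP (21.0% and 18.6% of all genes). Lta4h, whose product makes leukotriene B4, averaged 576 normalized counts with IRX3_S389A, 572 with IRX3_S361A, 512 with IRX3_WT and 613 with GFP, and fell by 0.26 on the log2 scale with IRX3_WT relative to GFP (limma adjusted p = 0.00306). Mgst3, a microsomal glutathione transferase that can form leukotriene C4, fell by 0.32 (limma adjusted p = 0.00303). The related transferase Mgst1 was higher by 0.53 (limma adjusted p = 7.61e-06), and Dpep3, a membrane dipeptidase of the family that processes leukotriene D4, by 0.28 (limma adjusted p = 0.0208). Mgst1 was the 1 gene of the 4 that was lower with IRX3_S361A than with IRX3_WT (-0.33, limma adjusted p = 0.00793), and this call was lost without IRX3_S361A library 1 (0.0626). The Dpep3 call was lost without IRX3_WT library 2 (0.0735) or 3 (0.0565), without GFP library 3 (0.108) and with equal library totals (0.399), and the Mgst3 call without IRX3_WT library 3 (0.0521).

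Among 7 tested genes of eicosanoid inactivation and export, 3 were higher and 2 lower with IRX3_WT than with GFP (21.0% and 18.6% of all genes). With equal library totals 1 was higher and 3 were lower, the calls of Ptgr1 (adjusted p = 0.268) and Abcc4 (0.225) being lost. Hpgd encodes the dehydrogenase that begins the breakdown of prostaglandin E2, and it had 5.17, 10.1 and 12.2 normalized counts with IRX3_S389A, 9.11, 18.9 and 10.1 with IRX3_S361A, 12.8, 3.12 and 18.2 with IRX3_WT, and 44.5, 49.7 and 38.3 with GFP. Every GFP library was above every library with an IRX3 construct. Its log2 difference was -2.13 for IRX3_WT, -1.78 for IRX3_S361A and -2.22 for IRX3_S389A, each against GFP (limma adjusted p = 1.83e-04, 0.00214 and 1.21e-04), and no pair of IRX3 constructs passed. Abcc1, an exporter of leukotriene C4, averaged 12083 normalized counts with IRX3_S389A, 11192 with IRX3_S361A, 13227 with IRX3_WT and 9212 with GFP. It was called in all 6 pairs, by 0.52 for IRX3_WT against GFP (limma adjusted p = 2.52e-16). The smallest, 0.11 for IRX3_S389A against IRX3_S361A (0.0212), was lost without IRX3_S389A library 2 (0.0873) or 3 (0.0579) or IRX3_S361A library 3 (0.0969), with equal library totals (0.270) and without trend and robust settings (0.104). Ptgr1, a reductase of prostaglandin and leukotriene metabolites, and the epoxide hydrolase gene Ephx1 were higher with IRX3_S389A than with IRX3_WT, by 0.37 and 0.44 (limma adjusted p = 2.35e-04 and 0.0298). The Ephx1 call was lost without IRX3_S389A library 1 (0.185) or IRX3_WT library 2 (0.154) or 3 (0.157) and without trend and robust settings (0.140).

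Of 8 tested receptors, 3 were higher and 2 lower with IRX3_WT than with GFP (21.0% and 18.6% of all genes). The prostacyclin receptor gene Ptgir averaged 643 normalized counts with IRX3_S389A, 556 with IRX3_S361A, 828 with IRX3_WT and 489 with GFP. It was higher with IRX3_WT than with GFP by 0.76 and lower than with IRX3_WT in IRX3_S361A (-0.57) and IRX3_S389A (-0.37) libraries (limma adjusted p = 1.09e-11, 5.93e-08 and 1.81e-04). Pparg, a nuclear receptor that binds a prostaglandin D2 derivative, averaged 311 with IRX3_S389A, 322 with IRX3_S361A, 251 with IRX3_WT and 406 with GFP, and fell by 0.69 with IRX3_WT relative to GFP (limma adjusted p = 2.33e-08). Ptger4, the EP4 receptor for prostaglandin E2, fell by 0.38 in the same comparison (limma adjusted p = 7.22e-05). Both were higher with the mutants than with IRX3_WT, Pparg by 0.35 with IRX3_S361A and 0.30 with IRX3_S389A, and Ptger4 by 0.31 with IRX3_S361A and 0.29 with IRX3_S389A. For Pparg the IRX3_S389A call was lost without IRX3_S389A library 2 (adjusted p = 0.0584) or IRX3_WT library 3 (0.0699) and with edgeR on 9 libraries, of which 2 are IRX3_S389A (0.0835). The opposite-strand genes Gm15937 and Ttc33 cover 16.5% of the exon bases of Ptger4. Cysltr1, a receptor of cysteinyl leukotrienes, was higher with IRX3_WT than with GFP by 0.36 (limma adjusted p = 2.13e-05), and neither mutant differed from IRX3_WT past the threshold.

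**Figure D4:**
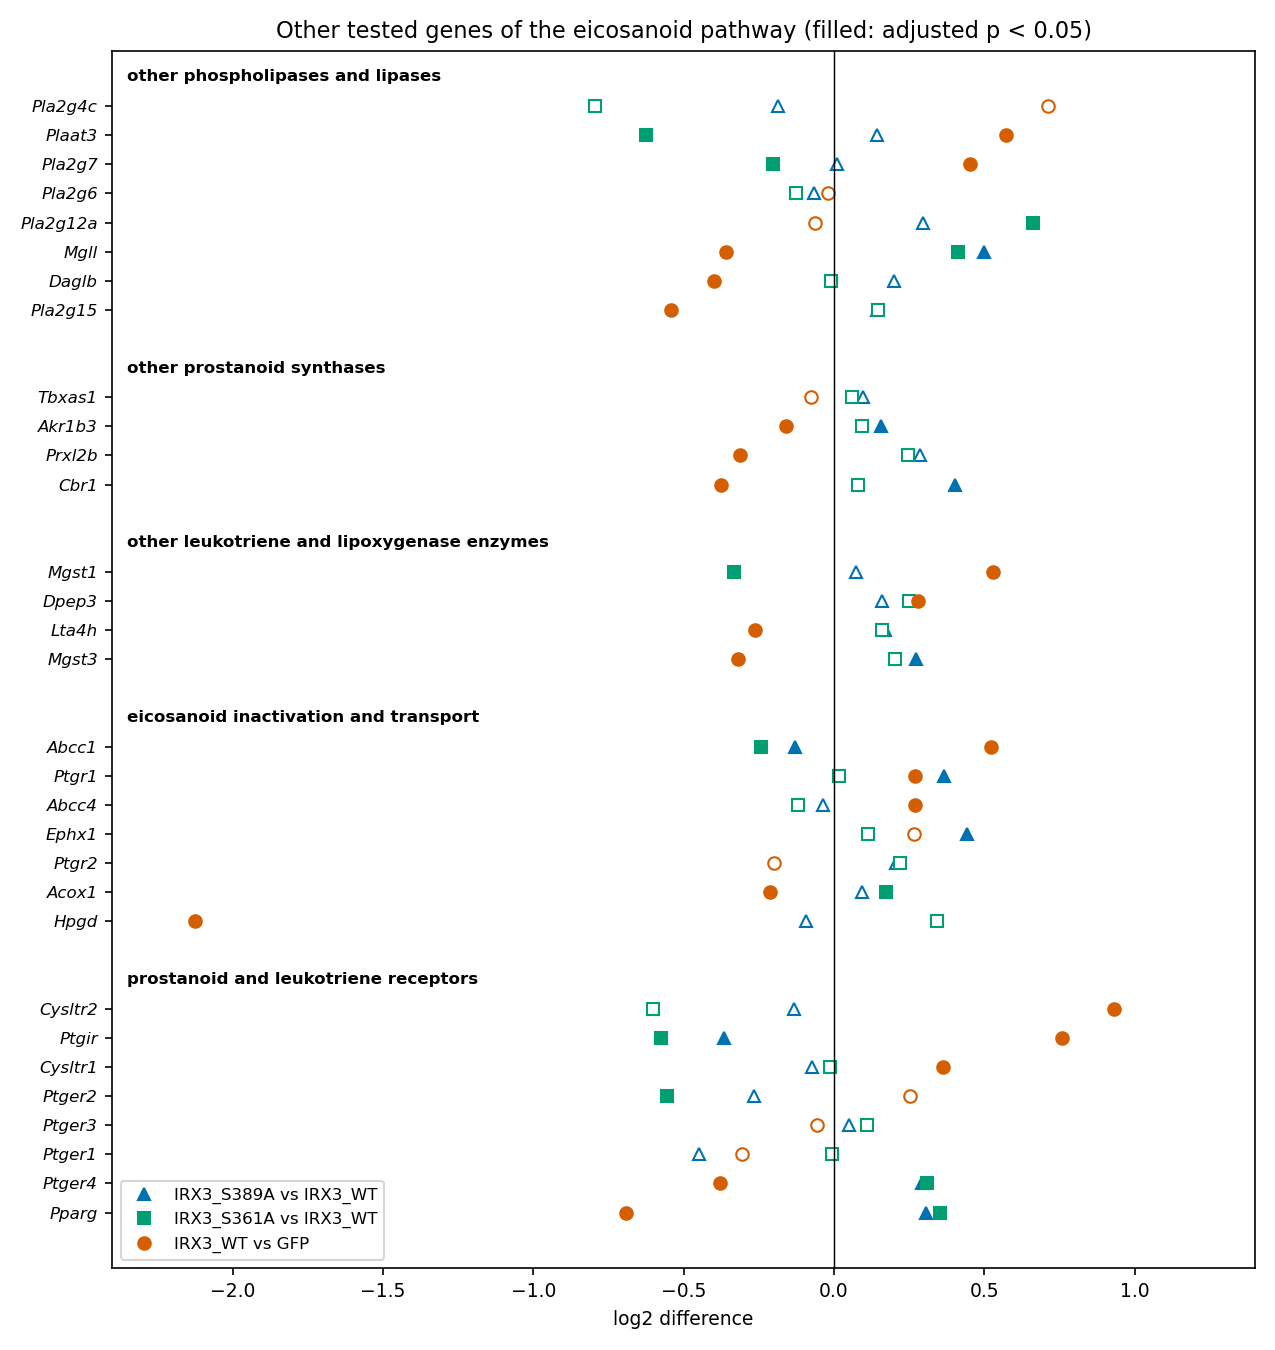
Log2 differences (limma) of the 31 further tested genes of eicosanoid metabolism and signalling, grouped by role, with filled symbols where the adjusted p is under 0.05. Triangles are IRX3_S389A against IRX3_WT, squares IRX3_S361A against IRX3_WT and circles IRX3_WT against GFP; Hpgd lies farthest left at -2.13.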

How the data were processed

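RNA-seq of total RNA was available for 12 libraries in 4 groups. The authors deposited 1 table of 55401 genes whose values are a normalized signal: in each library all values are whole multiples of 1 step, that is, gene counts divided by 1 size factor. Per the submitters' processing notes, the tools were Trimmomatic, StringTie 1.3.5 and HISAT2 2.1.0, with mm10 as the build. Which counter, strand setting and annotation were used is not stated in the sources at hand, so genes with overlapping exons are uncertain. By a rule on the step, whole reads were counted as recovered in 9 libraries. In the other 3 (IRX3_S361A libraries 2 and 3 and IRX3_S389A library 2) the step lies within 1% of 1. All values of these 3 libraries are whole multiples of their step as well (tolerance 1e-06), and edgeR on 12 libraries used them. Intervals of differences are 95% intervals from the fit, and the floor of 3 reads equals 2.67 to 3.41 normalized counts.

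The 13369 genes that reached 10 normalized counts in 3 or more libraries were tested with limma 3.58.1 in R 4.3.3 on log2(value + 1), with trend and robust settings, 1 mean per group and 8 residual degrees of freedom. The pseudocount understates changes of weak genes. P-values were adjusted by Benjamini-Hochberg over all tested genes at 0.05. The script was tested on simulated data. Alternatives were edgeR 4.0.16 on recovered reads (12 or 9 libraries), pseudocounts of 0.5 and 5, no filter, equal library totals, no trend and robust settings, a replicate block, the 2 compared groups alone, each library left out, and a GC correction. The GC correction, and all alternatives for genes other than the 10 enzymes, were added after seeing the data.

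Symbols, positions and exon lengths came from GENCODE M21, where 99.5% of gene IDs matched without version; promoter windows came from RefSeq. The enzymes and gene lists were chosen with earlier results of these data known. All 10 enzymes are named, with up to 4 genes per role list with the smallest p over the 4 groups, and the 5 genes most correlated with Ptgs2 and with Alox5 among tested genes with a mean of at least 100 normalized counts. Among lists of other cell types, lymphocyte markers summed to at most 10.2 normalized counts. Dendritic cell markers, of which 3 of 6 were tested, summed to between 117 (a GFP library) and 186 (an IRX3_S389A library). Stromal cell markers, of which 4 of 7 were tested, summed to between 41.4 (a GFP library) and 114 (an IRX3_S361A library). The part of these cells in the results was not tested.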

Additional observations from a re-analysis of the deposited data

How the results depend on the processing

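Of 1320 values of single enzymes under the alternatives, 1269 kept their side of the threshold, 41 were no longer past it, 10 were newly past it, and no called direction reversed. For the 31 pathway genes and both Ptgs2 neighbours, 4172 of 4356 values kept their side, 140 were no longer past it, 44 were newly past it and no called direction reversed. Of 285 counts of calls, 273 stayed within 1.5 times the main count. For IRX3_S389A against IRX3_S361A the count of enzymes was 1 with edgeR on 9 libraries and 0 without trend and robust settings, in place of 3, and the genes called were 437 and 684 in place of 1359. With IRX3_S361A against IRX3_WT the genes called were 1372 with edgeR on 9 libraries and 1278 without trend and robust settings, in place of 2071. Without those settings IRX3_S389A against IRX3_WT gave 1173 in place of 2043, and edgeR on 9 libraries gave 2242 for IRX3_S361A against GFP in place of 3457. The fit on 9 libraries keeps 1 IRX3_S361A library and 2 of IRX3_S389A, so its values for IRX3_S361A rest on 1 sample, assumed to vary like the other groups, and say nothing on the stability of those calls. The cause of the other shifts was not tested. Without those settings the Ptgs2 call between the mutants was also lost (adjusted p = 0.0513).

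Leaving out 1 library gave 1 to 3 enzymes and 904 to 1415 genes for IRX3_S389A against IRX3_S361A, the lowest gene count without IRX3_S361A library 3 and 1 enzyme without IRX3_S361A library 1 or 3 or IRX3_S389A library 1. Enzyme counts ranged from 5 to 6 (IRX3_WT against GFP), 5 to 5 (IRX3_S361A against IRX3_WT), 4 to 5 (IRX3_S389A against IRX3_WT), 3 to 4 (IRX3_S361A against GFP) and 5 to 6 (IRX3_S389A against GFP).

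Scaling to equal library totals moved the split of higher and lower genes to 1395 and 5519 for IRX3_WT against GFP (2805 and 2483 before), 1805 and 754 for IRX3_S361A against IRX3_WT (859 and 1212), 1047 and 3226 for IRX3_S361A against GFP (1996 and 1461), 1334 and 5397 for IRX3_S389A against GFP (2516 and 2160), and 597 and 1053 for IRX3_S389A against IRX3_S361A (936 and 423). Ptgs2, Ptges, Ptgs1 and Hpgds kept the direction and call of each difference from GFP and IRX3_WT under it. The Ptges difference between the mutants did not pass (0.10, adjusted p = 0.147), and Alox5 passed as lower with IRX3_WT than with GFP (-0.28, adjusted p = 0.0379).

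Replicate numbers did not pair the libraries: none of 18 correlations of same-numbered deviations exceeded 0.1 (-0.0410 to 0.0297). With the replicate block, 5 enzymes were called for IRX3_WT against GFP, 5 for IRX3_S361A against IRX3_WT, 4 for IRX3_S389A against IRX3_WT, 4 for IRX3_S361A against GFP, 5 for IRX3_S389A against GFP and 2 for IRX3_S389A against IRX3_S361A; the adjusted p of Ptgs1 in IRX3_S389A was 0.0542 against IRX3_WT and 0.0533 against IRX3_S361A. Weak genes such as Ltc4s, with as few as 7 reads in a library, are limited by depth.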

Other observations

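Granulocytes are another source of eicosanoids. Of 5 eosinophil markers, 2 reached the level for testing and 2 were at 0 in all libraries. Among 9 neutrophil markers, 3 reached that level and 3 were at 0 in all libraries, so few genes carry each sum. Eosinophil markers summed to 207 to 264 normalized counts with IRX3_S389A, 203 to 256 with IRX3_S361A, 233 to 248 with IRX3_WT and 259 to 271 with GFP. Neutrophil markers summed to 239 to 277 normalized counts with IRX3_S389A, 199 to 235 with IRX3_S361A, 245 to 281 with IRX3_WT and 185 to 249 with GFP. The part of these cells in the results was not tested.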
